A study of Mus musculus with 8 samples.

Results

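DNA polymerase alpha and primase form one complex of 4 subunits, and its genes were followed through 8 single mouse embryos. The members are *Prim1*, *Prim2*, *Pola1* and *Pola2*. *Prim2* was chosen by its measured levels, being low in 3 embryos that share the first part of a code in their labels, 2.2, and the other members were taken as its partners in the complex. They are 4 of the 20660 genes that could be matched to a probe of the array by RefSeq accession. Every embryo was wild type for *Eed* (*Eed* wt/wt), was collected at E8.5 and came from a wild-type mother on the C57bl6/129 background. In 4 embryos the father was wild type (WT father) and in the other 4 it was heterozygous for *Eed* l7Rn5-1989SB (HET father), a hypomorphic point mutation in *Eed*, a core gene of Polycomb Repressive Complex 2. Each group held 2 females and 2 males. The labels give the mothers' background as above, whereas a legend of the study names C57BL/6J females for this comparison. All embryos therefore carried the same *Eed* genotype, and the comparison of the study asked whether the father's genotype left a trace in offspring that did not inherit the mutant allele.

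Replication of DNA cannot start on a bare single strand, because the replicative polymerases only extend an existing end. Primase lays down a short RNA primer and DNA polymerase alpha lengthens it with DNA, at every origin and again for each Okazaki fragment of the lagging strand, before the polymerases delta and epsilon take over. *Prim1* encodes the catalytic subunit of primase and *Prim2* its large, regulatory subunit, which carries an iron-sulphur cluster. *Pola1* encodes the catalytic subunit of the polymerase and *Pola2* its accessory B subunit. The post-gastrulation embryo divides fast, and all 4 proteins are core replication factors of dividing cells.

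RNA of each embryo was hybridised to a one-colour Agilent array of its own. A level is given as log2 of the processed intensity minus the 75th percentile of that array, so that 0 is the 75th percentile and levels of different probes are not compared with each other. Between 29203 and 39530 probes per array were well above background. The summed levels of 4 markers of proliferating cells ran from 89.0 to 94.1 with WT fathers and from 86.1 to 93.8 with HET fathers, on the linear scale relative to the 75th percentile, and all 7 markers of the embryo proper had a tested probe. The 2 groups were hybridised on a slide each, so that an effect of the slide and one of the father cannot be told apart. The meaning of the embryo code is not given in the labels. The other 5 embryos had 5 different codes, so the 3 that share one may be related to each other. The p-values and intervals below treat all 8 as independent. The sources used here do not state which embryos were littermates, and they do not give a single number of sires. In whole embryos, fewer cells of a type and less RNA per cell cannot be told apart.

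Matching by RefSeq accession gave 1 probe of the array for each member. Probes without such an accession were not searched. All 4 were well above background on 8 of 8 arrays and saturated on 0, and all 4 passed the filter on dim probes. They stood among 33068 tested probes.

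*Prim2*, measured by probe A_51_P338998, had 2 well separated levels. Among embryos of WT fathers its log2 level was 1.68 in replicate 1, -0.73 in replicate 2, -0.67 in replicate 3 and -0.75 in replicate 4. Among embryos of HET fathers it was 1.81, 1.82, 1.77 and 1.81 in replicates 1 to 4. The 3 low embryos are those coded 2.2, 2 of them male and 1 female, and no embryo lay between the 2 levels.

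**Figure D1:**
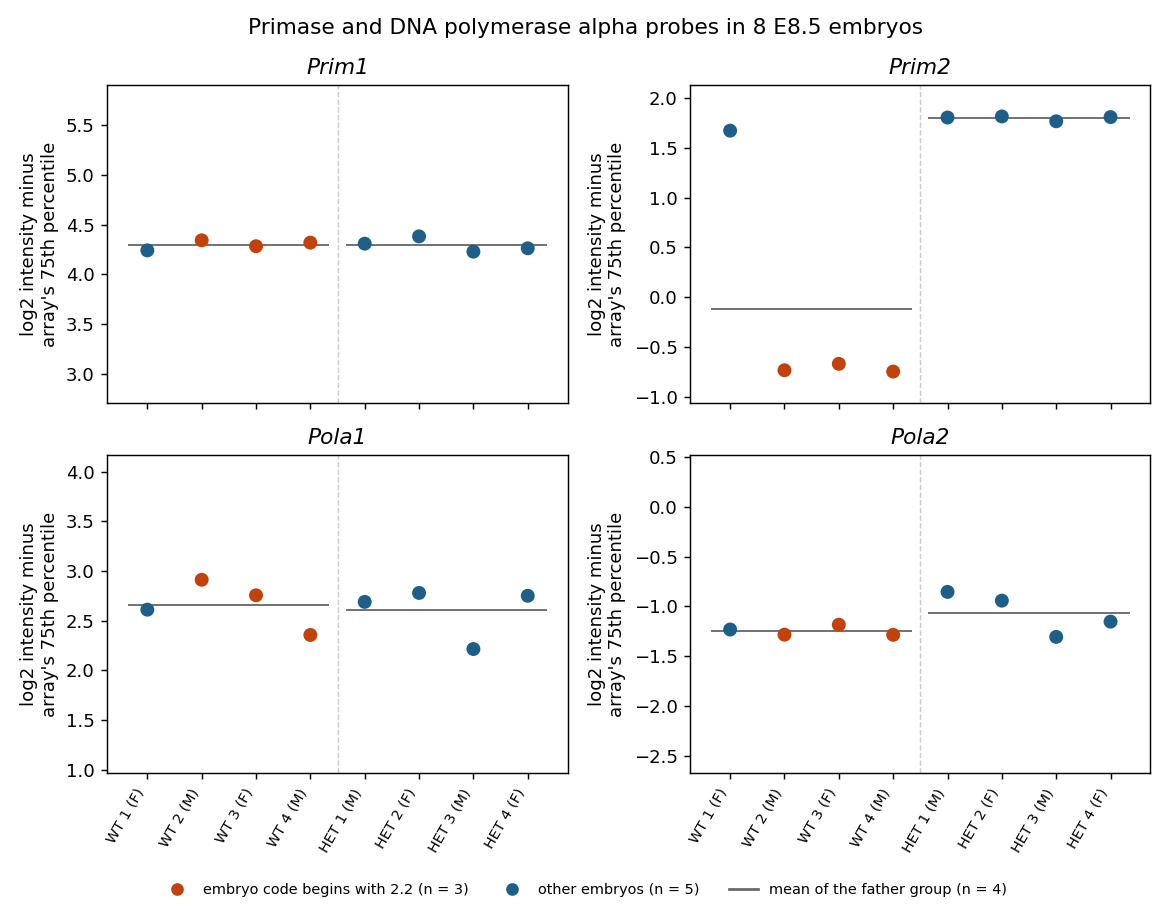
Log2 level of each member's probe (vertical axes, log2 intensity minus the array's 75th percentile, all spanning the same distance) in 8 embryos, labelled by father, replicate and sex. Orange points are the 3 embryos coded 2.2, blue points the other 5, and lines the father-group means (n = 4). *Prim2* lies near -0.72 in the orange embryos and near 1.78 in the blue ones, while the orange and blue points of *Prim1*, *Pola1* and *Pola2* overlap.

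The 3 low embryos had a mean of -0.72 ± 0.04 (SD, n = 3) and the other 5 a mean of 1.78 ± 0.06 (SD, n = 5). The difference of -2.49 on the log2 scale is a 5.63-fold lower signal. Against WT father replicate 1 alone, which was on the same slide, the 3 embryos were lower by 5.25-fold. The low signal was still measurable. The processed intensity was between 670 and 766 in the 3 embryos and between 3013 and 4432 in the other 5, while the local background of the spot was 51 to 55 and 33 to 138. These values selected the gene, so they are a description and no test of them is given.

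The mean of *Prim2* in embryos of WT fathers, -0.12 ± 1.197 (SD, n = 4), describes none of the 4, because it averages 3 low values with 1 high one. With HET fathers the mean was 1.80 ± 0.02 (SD, n = 4). The father groups did not overlap, but WT father replicate 1 lay 0.09 below the lowest embryo of a HET father, against the difference of 1.92 between the group means. Across all tested probes, 3.22% had father groups that did not overlap. By sex the values ran from -0.67 to 1.82 in females and from -0.75 to 1.81 in males, so both sexes held both levels.

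Within each of the 2 sets of embryos *Prim2* varied little. Its pooled SD within the sets was 0.05 on the log2 scale, and 2.45% of tested probes had a smaller one. For *Prim1* the pooled SD was 0.05, with 2.37% of probes below it. *Pola2* had 0.16 and *Pola1* 0.25. The distance from the highest of the 3 embryos coded 2.2 to the lowest of the other 5 was 2.35 for *Prim2*. Of the 33068 tested probes, only *Prim2* itself had a distance that wide. *Prim2* was chosen for being low in these 3 embryos, so its SD and its distance are a description and not a test.

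**Figure D2:**
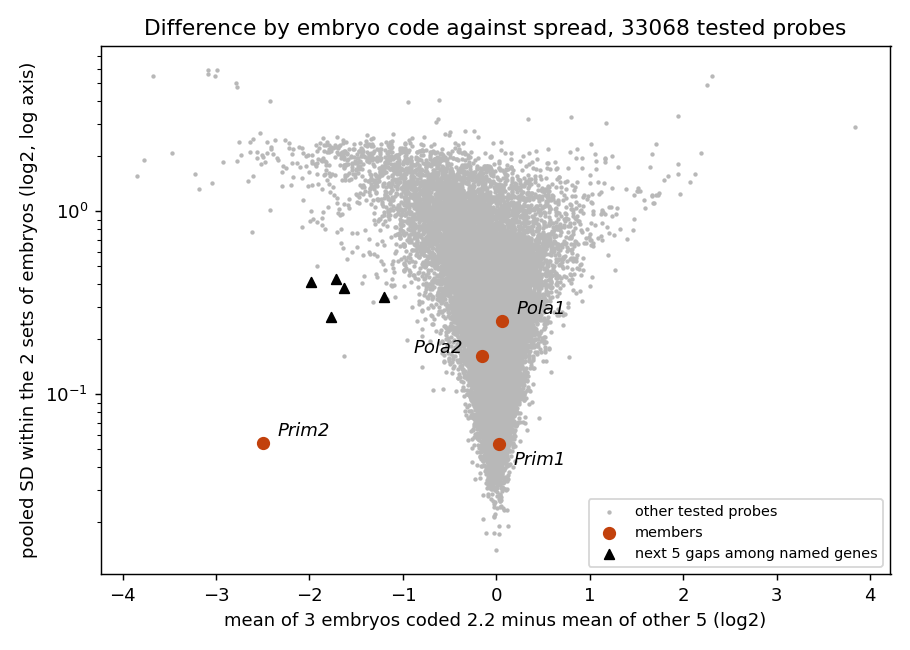
Each grey point is a tested probe, placed by the mean of the 3 embryos coded 2.2 minus the mean of the other 5 (horizontal axis, log2) and by the pooled SD within these 2 sets (vertical axis, log2 units on a log axis). *Prim2*, chosen for being low in these 3 embryos, is at -2.49 with an SD of 0.05. *Prim1*, *Pola1* and *Pola2* lie near 0, and triangles are the 5 probes of named genes with the next widest distance between the sets.

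*Prim1* (probe A_51_P168632), the catalytic primase subunit, was nearly the same in every embryo. With WT fathers its log2 level was 4.24, 4.34, 4.28 and 4.32 in replicates 1 to 4, and with HET fathers it was 4.31, 4.38, 4.23 and 4.26. The groups overlapped fully, and the whole range over 8 embryos was 0.15, narrower than in all but 1.73% of tested probes. In the 3 embryos with low *Prim2* the level was 4.28 to 4.34, inside the 4.23 to 4.38 of the other 5. The means were 4.30 ± 0.04 (SD, n = 4) with WT fathers and 4.30 ± 0.07 (SD, n = 4) with HET fathers. Their difference, HET minus WT, was -0.00 on the log2 scale with a standard error of 0.06 and a 95% interval from -0.15 to 0.15 (limma, Benjamini-Hochberg adjusted p = 1). That interval spans 0.901-fold to 1.11-fold.

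*Pola1* (probe A_51_P415905), the catalytic polymerase subunit, varied more between embryos. Its log2 level was 2.61, 2.91, 2.76 and 2.36 in replicates 1 to 4 of WT fathers and 2.69, 2.78, 2.21 and 2.75 in those of HET fathers. The 2 lowest values came from 1 embryo of each group, both male and 1 of them coded 2.2. The 3 embryos coded 2.2 ran from 2.36 to 2.91 and the other 5 from 2.21 to 2.78. The means were 2.66 ± 0.24 and 2.61 ± 0.26 (SD, n = 4 each). The difference of -0.05 had a standard error of 0.17 and an interval from -0.44 to 0.34 (limma, adjusted p = 1), or 0.736-fold to 1.27-fold. Its sign rested on single embryos, and it was 0.08 without HET father replicate 3 and 0.03 without WT father replicate 2.

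*Pola2* (probe A_51_P391495), the accessory subunit, had log2 levels of -1.23, -1.28, -1.18 and -1.29 in replicates 1 to 4 of WT fathers and -0.85, -0.94, -1.31 and -1.15 in those of HET fathers. The WT father embryos were tightly grouped and 3 of 4 HET father embryos lay above all of them, while HET father replicate 3 was the lowest of the 8. The means were -1.25 ± 0.05 and -1.06 ± 0.20 (SD, n = 4 each). The difference of 0.18 had a standard error of 0.11 and an interval from -0.07 to 0.44 (limma, unadjusted p = 0.133, adjusted p = 1), or 0.953-fold to 1.35-fold. By code, the 3 embryos lay between -1.29 and -1.18, within the -1.31 to -0.85 of the other 5.

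None of the 3 partners passed the test by father, at an adjusted p under 0.01 and at least 2-fold, and the intervals of all 3 lay inside a 2-fold change. The background of this comparison was 0% of tested probes called by limma, or 0 of 33068. At an unadjusted p under 0.05 it was 4.39% (1452 probes), and 0 of the 3 partners were among them. A p that misses the threshold does not show that levels were equal. The intervals above give the sizes that remain possible if the embryos are independent, and they also hold any effect of the slide. With the code as a random block, the correlation between embryos of the same code was 0.541 over the probes tested, in the father comparison.

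*Pola1* is on the X chromosome, *Prim2* on chromosome 1, *Prim1* on chromosome 10 and *Pola2* on chromosome 19, so the sexes were compared as well, with the father group in the fit. *Pola1* was at 2.61 to 2.78 in females and 2.21 to 2.91 in males, and the sexes overlapped. Female minus male was 0.18 with a standard error of 0.17 and an interval from -0.22 to 0.58 (limma, unadjusted p = 0.314, adjusted p = 1). *Prim1* had -0.01, with an interval from -0.17 to 0.16, and *Pola2* had 0.05, from -0.22 to 0.33 (both limma, adjusted p = 1). Across all tested probes 0.0333% were called between the sexes (11 probes), and 3.28% had an unadjusted p under 0.05. No partner was in either count. The father difference also did not pass a test of dependence on sex. The interaction was 0.12 ± 0.14 for *Prim1*, 0.26 ± 0.34 for *Pola1* and -0.04 ± 0.25 for *Pola2* (estimate ± standard error on the log2 scale, limma, adjusted p = 0.996 each).

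**Figure D3:**
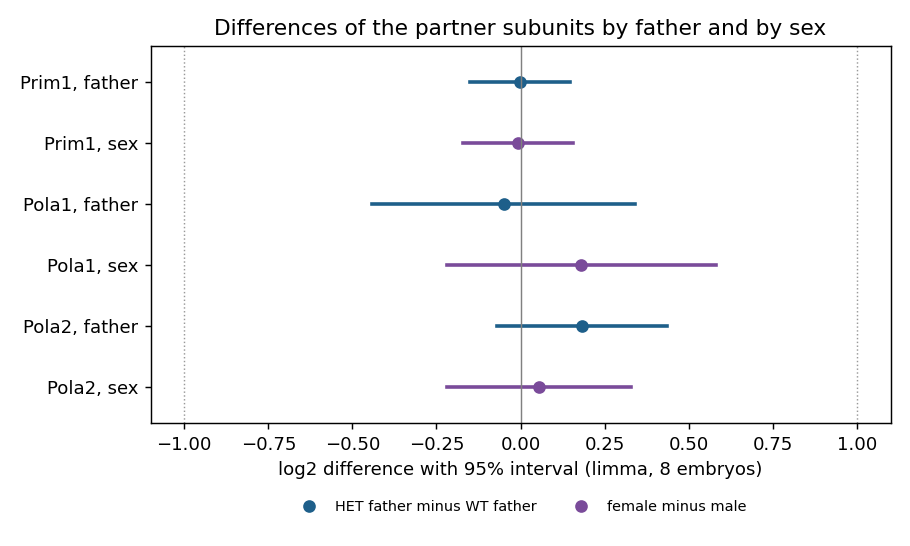
Log2 differences (points) with 95% intervals (lines) for the partner subunits, HET father minus WT father in blue and female minus male in purple, from limma over 8 embryos. All 6 intervals cross 0 and lie inside the dotted lines at a 2-fold change, and that of *Prim1* by father, -0.15 to 0.15, is the narrowest.

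The primase complex hands its primers to a larger machinery. In 8 lists, 60 genes of that machinery and of other DNA synthesis, repair and S phase control were examined, with the brightest tested probe for each. All but *Ccne2* had a tested probe. By father 0 of 59 were called and 3 had an unadjusted p under 0.05, all higher with HET fathers, which is 5.08% against the 4.39% of all tested probes. They were *Pold2*, a subunit of polymerase delta (0.26 on the log2 scale), *Rfc4*, a subunit of the loader of the sliding clamp (0.23), and *Mad2l2*, a subunit of the translesion polymerase zeta (0.39). Their limma adjusted p was 1. The median difference of the 59 genes was 0.04, beside 0.00 over all tested probes. By sex 0 of 59 were called, 0 had an unadjusted p under 0.05, and the median was 0.02 beside -0.02 over all tested probes.

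In the polymerases of the leading and lagging strand, which extend what polymerase alpha has started, the median difference by father was -0.00 over 8 genes. The largest differences were those of *Pold2* and *Pold4*, the smallest subunit of polymerase delta (0.23). By sex *Pold3* had -0.15 and *Pole3*, a histone-fold subunit of polymerase epsilon, 0.10. For the clamp and its loader the median was 0.07 over 6 genes, led by *Rfc4* and *Rfc3* (0.14), while by sex *Rfc3* had 0.23 and *Pcna*, the sliding clamp, -0.06. The 10 helicase activators and fork proteins had a median of 0.07 by father, with *Gins3*, a subunit of the GINS complex of the helicase, at 0.14 and *Timeless*, a fork protection factor, at 0.11. By sex *Cdc45*, a helicase cofactor, had 0.40 with a standard error of 0.24 and *Gins2* had 0.26.

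The 3 genes of RPA, which coats single-stranded DNA, had a median of 0.12 by father, with *Rpa2* at 0.19 and *Rpa1* at 0.12, and by sex *Rpa3* had 0.08 and *Rpa1* 0.05. In primer removal and ligation the median over 6 genes was 0.06. *Lig1*, the ligase that joins Okazaki fragments, had 0.18, *Rnaseh2a*, the catalytic subunit of a nuclease that cuts RNA in hybrids with DNA, had 0.15 by father and -0.12 by sex, and *Dna2*, a nuclease and helicase, had 0.05 by sex. The CST complex, which recruits polymerase alpha and primase to telomeres, had a median of -0.02 over 3 genes. *Stn1* had 0.10 and *Ten1* -0.07 by father, while *Ten1* had 0.14 and *Ctc1* 0.04 by sex.

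Of 13 other primase and repair polymerase genes the median was 0.02 by father, with *Mad2l2* first and *Poli*, a translesion polymerase, at 0.26. By sex *Poli* had -0.18 and *Primpol*, the second primase of mammalian cells, -0.17. The 10 measured S phase regulators had a median of 0.03, and *Cdc7*, a kinase needed for origin firing, had -0.21 and *Cdc6*, a loader of the helicase, 0.14. By sex *Cdc7* had -0.21 and *E2f3*, a transcription factor of the G1 to S transition, -0.09. In both comparisons limma gave an adjusted p of 1 for every one of these genes.

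**Figure D4:**
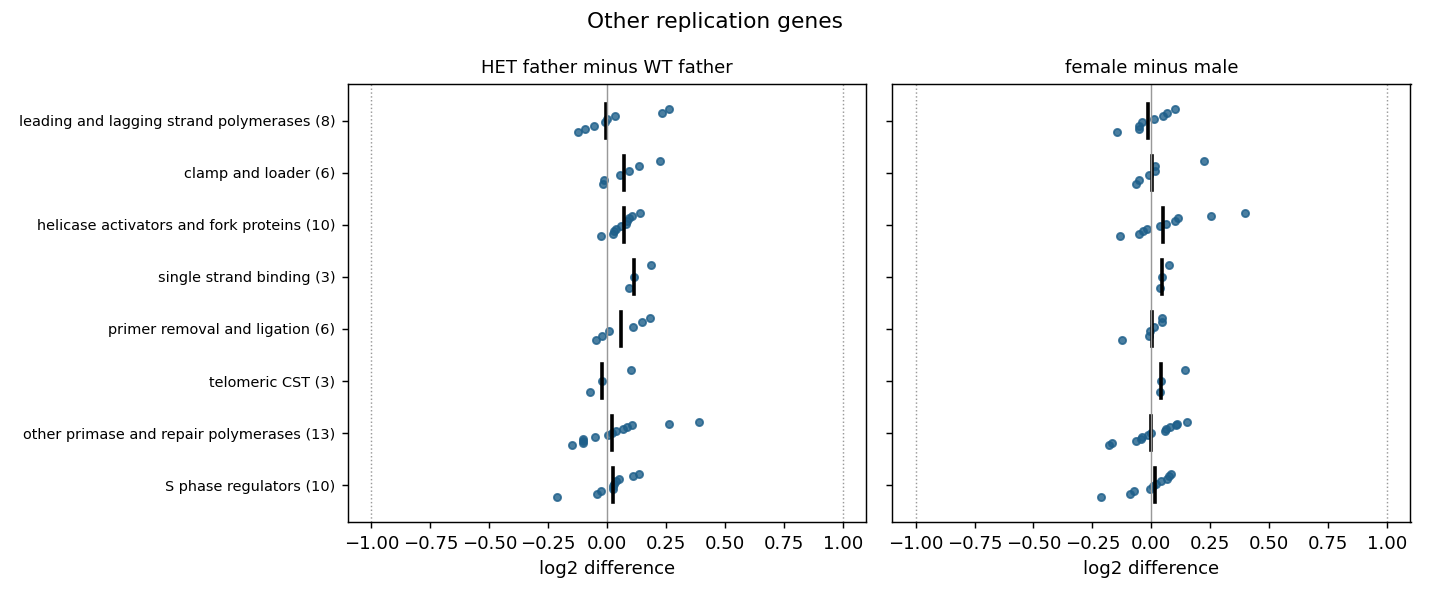
Log2 differences of 59 other genes of replication, repair and S phase control in 8 lists (number of tested genes in brackets). HET father minus WT father is on the left and female minus male on the right. Points are genes, black bars list medians, and dotted lines mark a 2-fold change, which no gene reached; the widest differences were 0.39 by father (*Mad2l2*) and 0.40 by sex (*Cdc45*).

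The same genes were then set by embryo code, as a description. All 3 embryos coded 2.2 had WT fathers, while the other 5 include every embryo of a HET father, on the other slide. Differences by code therefore also hold those of father and slide. Relative to the other 5 embryos, the 3 with low *Prim2* had a median difference of -0.04 over the 59 genes, beside -0.03 over all tested probes, and the single genes lay between -0.32 and 0.18. In 2 of 59 (3.39%) all 3 embryos were below the other 5, *Rfc4* (-0.24) and *Rpa3* (-0.11), and in 1 all 3 were above, *Rev3l*, the catalytic subunit of polymerase zeta (0.14). Over all tested probes these shares were 1.99% and 1.38%. For the partners, the difference by code was 0.03 in *Prim1*, 0.07 in *Pola1* and -0.15 in *Pola2*. Scaled by the median of each array instead, these were 0.35, 0.38 and 0.16, and that of *Prim2* was -2.18, since this scaling moved every probe by 0.32.

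The genes next to *Prim2* were examined for the same pattern. On one side the nearest 3 genes with a tested probe were *Gm9839*, *Gm4850* and *Ptp4a1*, a phosphatase, and on the other *1700001G17Rik*, *Rab23*, a small GTPase that restrains Hedgehog signalling, and *Bag2*, a co-chaperone. In 6 of 6 the embryos coded 2.2 overlapped with the others. Most tested probes overlapped in this way: in 1.99% the embryos coded 2.2 were all lower than the other 5, and in 1.38% all higher. *Ptp4a1* was at 5.02 to 5.30 in the 3 embryos and 4.97 to 5.26 in the other 5. *Rab23* was at -0.89 to -0.48 and -1.02 to -0.42, and *Bag2* at 2.26 to 2.82 and 2.31 to 3.01.

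Among probes of other named genes, those most like *Prim2* were taken as the 5 with the widest distance between the highest of the 3 embryos coded 2.2 and the lowest of the other 5. They belonged to *Crispld1*, *Hspa12a*, *Napa*, *C5ar2* and *Slc1a5*, with distances of 1.28, 1.21, 1.18, 0.79 and 0.69 on the log2 scale over 8 embryos. These values chose the probes and are not tested. *Crispld1*, which encodes a secreted cysteine-rich protein, was at -2.79 to -2.28 in the 3 embryos and -0.998 to -0.396 in the others. It lies on chromosome 1, as *Prim2* does, with 155 annotated genes between them. *Hspa12a*, of the HSP70 family, was not well above background on the arrays of the 3 embryos. It passed the filter on dim probes only through the other 5. Its measured mean in those 5 was 3.96-fold higher, set against values in the 3 that were not told from background.

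*Napa* (alpha-SNAP, which takes apart SNARE complexes), *C5ar2* (a receptor of complement C5a) and *Slc1a5* (a glutamine transporter) lie close together on chromosome 7. In the order of RefSeq genes 4 genes stand between *Napa* and *C5ar2* and 20 between *C5ar2* and *Slc1a5*. In the 3 embryos *Napa* was at -0.14 to 0.05 against 1.23 to 2.16 in the others, *C5ar2* at -4.87 to -4.51 against -3.71 to -2.39, and *Slc1a5* at -1.94 to -1.91 against -1.22 to -0.29. Probes of the same gene did not always share the pattern. A second *Slc1a5* probe also had all 3 embryos below the others (difference by code -1.28), whereas a second *Napa* probe had a difference of -0.01 and a second *C5ar2* probe one of -0.44, and in both the sets overlapped. *Prim2* has no second probe matched to it by RefSeq accession with which its level could be compared.

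**Figure D5:**
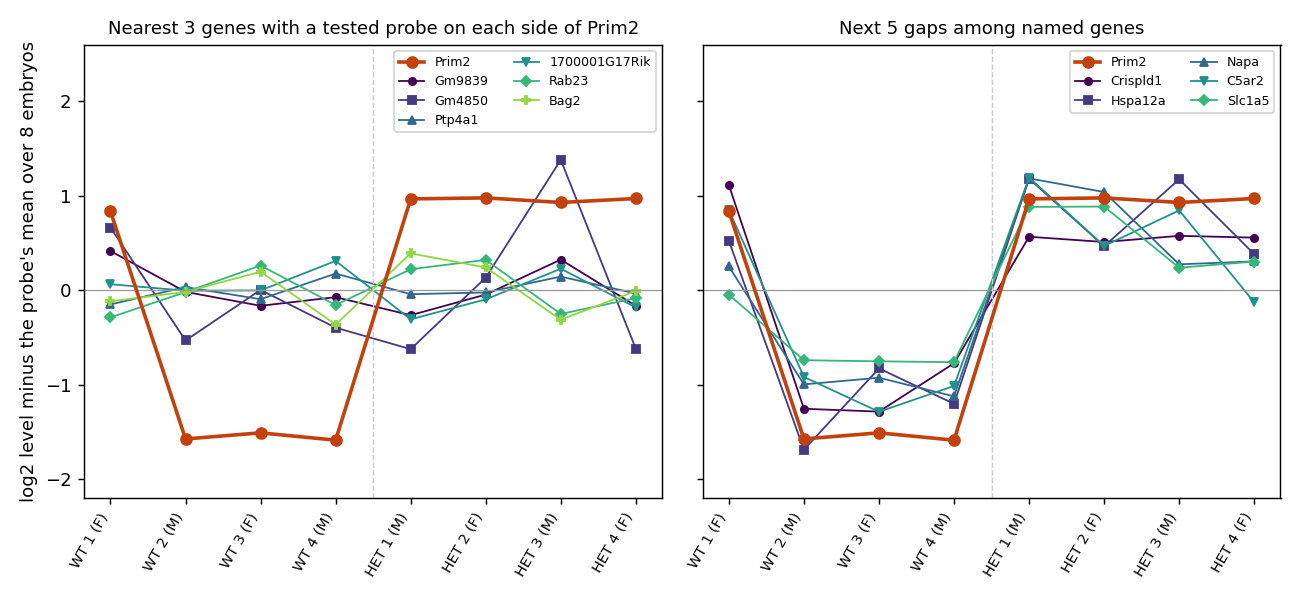
Log2 level minus each probe's mean over 8 embryos (vertical axis) in the 8 embryos (horizontal axis, father, replicate and sex), with *Prim2* in orange. On the left the 3 nearest genes with a tested probe on each side of *Prim2* do not follow its step in WT father replicates 2 to 4, and on the right the 5 probes chosen for their likeness do.

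The summed levels of the marker lists overlapped between the 3 embryos coded 2.2 and the other 5, and only that of decidua and trophoblast was separated by father. Of 5 markers of decidua and trophoblast 3 were tested (*Prl2c2* and *Tpbpa* were not), and their summed level, on the linear scale relative to the 75th percentile, was 6.90 to 10.8 in the 3 embryos coded 2.2 and 2.27 to 7.62 in the other 5. By father it was 6.90 to 10.8 with WT fathers and 2.27 to 5.44 with HET fathers, with no overlap. WT father replicate 1, in which *Prim2* was high, was thus on the side of the 3 embryos. Among all single tested probes, 3.22% had father groups that did not overlap. A sum on the linear scale is weighted to its brightest gene, and these markers were not examined singly. The 5 markers of primitive erythroid cells summed to 466 to 835 in the 3 embryos and 726 to 1062 in the others, and the 5 of yolk sac endoderm to 217 to 327 and 274 to 351. The 4 markers of proliferating cells summed to 91.4 to 94.1 and 86.1 to 93.8. Their part in the *Prim2* levels was not tested.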

How the data were processed

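RNA of 8 E8.5 embryos was hybridised by the authors to one-colour Agilent arrays, and spots were read with Agilent Feature Extraction 11.0.1.1, per the submitters' processing notes. The intensity deposited for each spot has its background and spatial trend removed and is not scaled between arrays. The array design is on mouse build mm9. A series-wide table holds the same intensity, rounded, and 0 of its columns were left unused.

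The log2 of this intensity was shifted by each array's 75th percentile, since the authors' methods name a percentile shift and no test. Spots of controls and outliers were removed, and repeated spots of 1 probe averaged. Tested were probes that lay above the lowest 20% by mean and stood well above background on at least 4 arrays. Fits used limma 3.58.1 in R 4.3.3, with data.table (version 1.17.8). A call needed 2-fold and an adjusted p (Benjamini-Hochberg) under 0.01. Tables and figures used Python with pandas, numpy and matplotlib. RefSeq accessions of 27235 probes, out of 28685, had a symbol in the gene table for GRCm38.p6, which served for names and gene order only. The test was checked on simulated data with independent embryos, which does not cover a shared code or an effect of the slide. The number of arrays limits the precision.

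The members, lists and tests were chosen with earlier results of these data known. Named are all members, in each list the 2 genes with the largest difference per comparison, those at an unadjusted p under 0.05 or whose sets by code did not overlap (added after their values were seen), the 3 nearest genes on each side of *Prim2*, and the 5 probes of named genes most like it. Alternatives were 3 other ways of scaling or background correction (median shift, quantile, and normexp with an offset of 50, run on the median spot signal because the files hold no mean), the series table, 2 other filters, other covariates and blocks, other moderation, another threshold, and each embryo left out. A slide block could not be fitted in the father comparison.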

Additional observations from a re-analysis of the deposited data

Results flagged for a closer look

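*Prim2* was left out of the count here, because its values chose it. In 1 of the 6 sets of 4 embryos (3 partners by 2 father groups) 1 embryo stood apart from the rest by more than Dixon's 95% critical value for the share of the range taken by its gap, which chance does in about 1 in 20 sets. For *Pola1*, HET father replicate 3 stood below the other embryos of HET fathers, with a gap of 0.841 of the range. As a description only, the gap between WT father replicate 1 and the other embryos of WT fathers in *Prim2* took 0.968 of the range, which follows from the choice of the gene: it is the single embryo of that group not coded 2.2.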

How the results depend on the processing

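Between fathers 0 probes were called under each alternative with all 8 embryos, the replicate block included, and 0 to 1 with an embryo left out. The 1 was *Prim2* itself without WT father replicate 1, which is no test of it since these values chose the gene, and another probe without HET father replicate 4. Between the sexes the 11 calls became 5 with no filter on dim probes, 0 for probes well above background on all 8 arrays, 0 with the replicate block, and 1 to 7 with an embryo left out. Replicate numbers do not pair the samples (correlations of same-numbered deviations from -0.587 to -0.0452). No member or listed gene was among the 11.

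The partners passed the test under no alternative, but differences near 0 changed sign. By father, *Prim1* was 0.0106 with the code as a random block and ran from -0.0301 to 0.0212 with an embryo left out, and *Pola1* from -0.151 to 0.081. By sex, *Prim1* was 0.137 with a median shift and ran from -0.0437 to 0.0131 with an embryo left out, and *Pola2* from -0.0315 to 0.15. HET father replicate 3 gave the ends 0.0212, 0.081 and -0.0315. The *Prim2* difference by code ran from -2.52 to -2.18, the latter with a median shift, which moved the median of all father differences by -0.106. Its difference by father ran from 1.54 to 2.52, the latter without WT father replicate 1. The cause was not tested. The lowest ratio of a member's signal to its local background was 3.64 (*Pola2*, HET father replicate 4). The median local background of that array was 133, against 30 to 32 on the other arrays of HET fathers.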
